A study of Rattus norvegicus with 24 samples.

Results

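The microglia identity genes are 9 genes whose RNA in brain comes mainly from microglia, the resident macrophages of the brain: Cx3cr1, P2ry12, Tmem119, Csf1r, Aif1, Itgam, Trem2, Tyrobp and Cd68. They were chosen by name, and all 9 were found, each once, among the 32545 genes measured. RNA-seq was run on the NAc (nucleus accumbens, core and shell, a striatal region of reward and motivation) of adult male Sprague Dawley rats that were 8 weeks old on arrival, in 24 libraries, 4 rats for each of 6 groups. In the injection experiment, rats first received 5 intraperitoneal injections of 250 µg/kg LPS (lipopolysaccharide, a bacterial cell wall component that activates innate immune receptors) or of saline over 2 weeks, and after a break they received heroin or saline on 5 days, with heroin rising from 1 to 5 mg/kg, and were killed 1 h after the last injection by the labels. The study's methods instead describe a short locomotor session after that injection, in every rat, and killing within 1 h of its end. The groups were Saline-Saline (saline in both phases), LPS-Saline (LPS and then saline), Saline-Heroin (saline and then heroin) and LPS-Heroin (LPS and then heroin). In the self-administration (SA) experiment, rats with a jugular catheter took heroin at 0.075 mg/kg per infusion (Heroin-SA) or saline (Saline-SA) in 10 daily sessions of 6 h and were killed right after the last one, and no rat of these groups received LPS. The question was whether a past course of LPS left a lasting change in these genes. LPS is an acute stimulus, and the break and the 5 days of heroin or saline lay between the last LPS injection and tissue collection, so early responses were not sampled.

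Microglia survey brain tissue with motile processes, and the 9 genes cover different steps of that work. Csf1r is the growth factor receptor on which microglial survival depends, and it binds Csf1 and Il34. Cx3cr1 receives the neuronal chemokine Cx3cl1, and P2ry12 is the purinergic receptor that steers processes towards released nucleotides. Tmem119 is a membrane protein used to tell microglia from other macrophages. Trem2 is a lipid-sensing receptor that signals through the adaptor Tyrobp. Itgam is the alpha chain of complement receptor 3 and pairs with Itgb2, Aif1 (Iba1) is an actin-binding protein used to stain microglia, and Cd68 is a lysosomal glycoprotein that is abundant in phagocytes. In many models of activation Cx3cr1, P2ry12 and Tmem119 fall while Cd68 rises.

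Promoter sequence is shown for Csf1r, Cx3cr1 and Itgam, since Csf1r went up and down together with Cx3cr1 and with Itgam across the libraries of the injection experiment, as described further on. Shown are the 250 bases before the annotated start in RefSeq (build GRCr8, each on its gene's strand, 5′ to 3′), and capitals mark the PU box, the letters GAGGAA on either strand (TTCCTC where it lies on the opposite strand), a core recognised by PU.1, the product of Spi1. The windows are, for Csf1r, chr18:56834129-56834378 (+ strand), for Cx3cr1, chr8:128677067-128677316 (- strand) and, for Itgam, chr1:192089342-192089591 (+ strand).
Csf1r: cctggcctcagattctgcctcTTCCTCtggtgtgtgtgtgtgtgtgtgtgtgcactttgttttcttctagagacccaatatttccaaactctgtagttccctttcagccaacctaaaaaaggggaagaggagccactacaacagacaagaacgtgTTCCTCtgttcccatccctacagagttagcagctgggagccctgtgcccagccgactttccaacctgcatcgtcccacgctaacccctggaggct
Cx3cr1: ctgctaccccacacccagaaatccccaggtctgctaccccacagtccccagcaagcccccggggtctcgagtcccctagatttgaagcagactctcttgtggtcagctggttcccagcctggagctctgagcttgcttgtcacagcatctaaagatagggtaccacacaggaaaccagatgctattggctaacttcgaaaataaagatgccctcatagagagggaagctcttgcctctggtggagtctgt
Itgam: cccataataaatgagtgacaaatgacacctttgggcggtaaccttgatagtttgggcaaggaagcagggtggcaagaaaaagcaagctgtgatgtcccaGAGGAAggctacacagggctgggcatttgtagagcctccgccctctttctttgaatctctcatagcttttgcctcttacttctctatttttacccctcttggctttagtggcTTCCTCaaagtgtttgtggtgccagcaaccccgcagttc
Csf1r held 2 PU boxes, beginning 229 and 95 bases before the start, and Itgam held 2, beginning 151 and 39 bases before the start. Cx3cr1 held none in this window. RefSeq promoters were given for 5 members, the other 2 being Trem2 and Cd68, with 1 PU box each at 29 and 27 bases before the start. A PU box was thus present in 4 of 5 members and in 23.3% of all 33469 promoters of that length. The longer ETS-IRF composite element, searched on either strand, was present in 1 of 5 members (Cd68, where it overlapped the PU box) and in 2.48% of all promoters. P2ry12, Tmem119, Aif1 and Tyrobp were not matched. These are matches of letters and not evidence of binding.

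Depth was 12312878 to 18850240 reads on genes per library. Values are FPKM, fragments scaled by gene length and by library size, so levels can be compared between genes. Fold changes and tests are on log2(FPKM + 0.1), a scale that slightly understates changes of low genes. RNA of striatal medium spiny neurons was present: 10 of 10 of their markers passed the filter of a mean FPKM of at least 0.5, and their summed level ran from 1209 to 3251 FPKM. Passing so low a filter does not verify the dissection. Summed cortical glutamatergic genes ran from 43.8 to 436 FPKM per library and summed red blood cell genes from 335 to 4649 FPKM. One library, Saline-Saline replicate 1, stood apart with a summed choroid plexus level of 332 FPKM, against 0.454 to 27.0 FPKM in the other 23 libraries. Reads of mitochondrial genes took 6.82% to 9.10% in the injection experiment and 10.0% to 15.9% in the SA experiment.

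All 9 members were detected in every library and all passed the filter. Csf1r was the most abundant by mean FPKM over the 24 libraries, at 21.4, and was followed by P2ry12 (14.8), Tmem119 (14.2), Tyrobp (11.7), Cx3cr1 (11.0), Aif1 (8.67) and Trem2 (8.58). Itgam (1.29) and Cd68 (1.20) were far lower. Neighbours in this order were often not separable: P2ry12 exceeded Tmem119 in 12 of 24 libraries, Aif1 exceeded Trem2 in 12, Itgam exceeded Cd68 in 13 and Tyrobp exceeded Cx3cr1 in 14. By contrast, Csf1r exceeded P2ry12 in 22 of 24 libraries and Trem2 exceeded Itgam in 24 of 24. Among border macrophage genes, whose summed level over 9 genes was 6.98 to 20.8 FPKM per library, Mrc1 and Cd163, which mark macrophages around vessels and in the meninges, had group means of 0.529 to 1.07 and of 0.264 to 0.335 FPKM. Ccr2, a receptor of blood monocytes, was listed at 0 in every library, which alone does not show that blood leukocytes were absent. The 9 listed genes of blood monocytes and neutrophils summed to 5.18 to 21.1 FPKM per library. Among them is a gene also listed for oligodendrocyte precursors.

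The reads behind each member differed widely. Csf1r rested on 889 to 1716 reads per library and Tmem119 on 287 to 630, whereas Tyrobp rested on 72 to 140 and Cd68 on only 9 to 40. The coefficient of variation within groups was smallest for Csf1r, at 9.36%, and counting error alone would give 2.83%. It was 28.4% for P2ry12, for which counting error would give 6.30%, the largest excess among the members. For Cd68 it was 33.4% against 22.6%, so that counting made up much of the scatter of this gene. P2ry12 (build rn6, chromosome 2, 149441598 to 149444548, - strand) lies wholly within the span of Med12l on the opposite strand, whose mean level was 3.33 FPKM. Whether the strand was used in counting is not stated, so its level is less certain than that of members that overlap no other gene. The span of Itgam (chromosome 1, 199495298 to 199623960, + strand) wholly contains that of Itgax, which had a mean level of 0.0777 FPKM. Both lie on the same strand, so strand alone could not separate their reads.

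**Figure D1:**
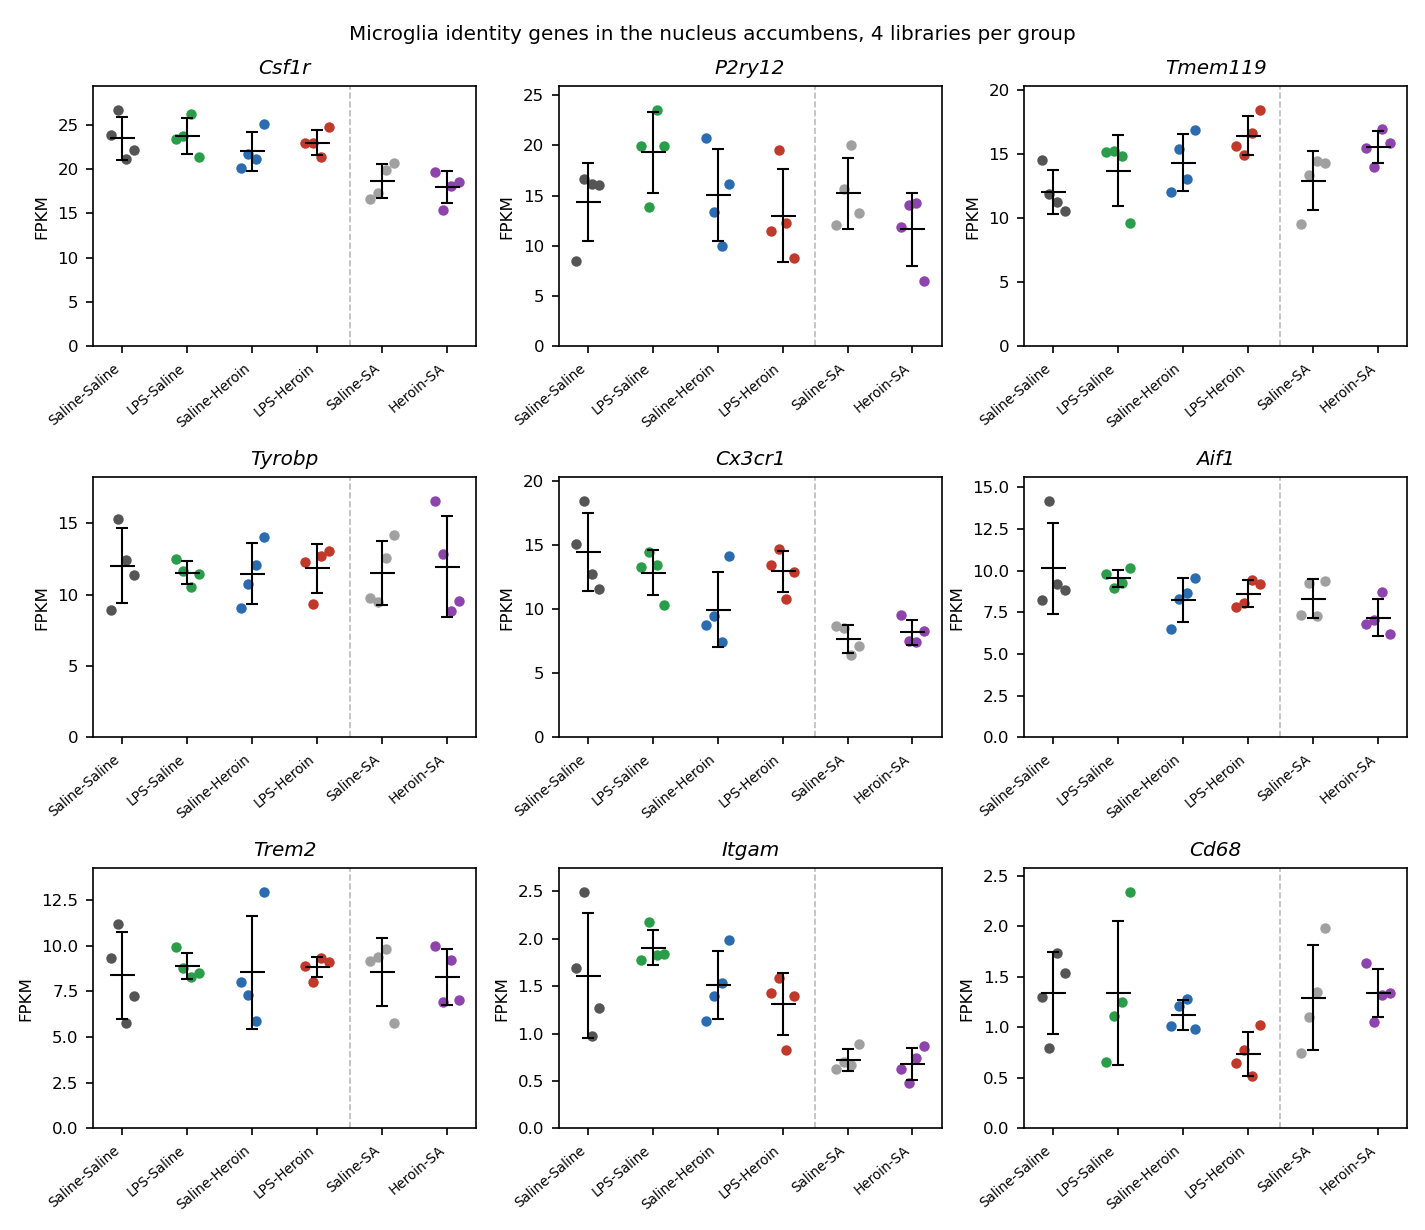
FPKM (y axis, linear, from 0) of each member in every library by group. Points are single libraries, the horizontal mark is the group mean and the bar is 1 SD (n = 4), and the dashed line separates the injection from the SA experiment. Csf1r keeps to 15.4 to 26.7 FPKM, P2ry12 scatters from 6.47 to 23.6 FPKM, and Itgam and Cx3cr1 lie low in both SA groups.

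Past LPS without heroin was followed by no call among the members. In LPS-Saline against Saline-Saline, 0 of 9 members passed an unadjusted p of at most 0.05 together with a fold of at least 1.3 (the threshold for a call used throughout), and 2.36% of all 15119 genes tested did. At an adjusted p under 0.05 by limma with Benjamini-Hochberg adjustment there were 0 members and 0 genes, although 1002 genes had an unadjusted p of at most 0.05. The voom fit on recovered reads also called 0 members. Of the members 5 were higher and 4 lower, and their median log2 fold change was 0.01, as was that of all genes tested. Leaving out each library in turn moved the members' median between -0.01 and 0.12. It was highest without Saline-Saline replicate 2, where 7 members were higher and 2 lower.

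Csf1r, the member measured most precisely, was close to equal. Its FPKM was 23.8, 26.7, 21.1 and 22.2 in the Saline-Saline libraries and 23.3, 23.7, 26.2 and 21.3 in the LPS-Saline libraries, and the groups overlapped throughout. The log2 fold change was 0.01 (SE 0.09), with a 95% interval from 0.875-fold to 1.17-fold, which lies within 1.3-fold on both sides. The same held for Tyrobp, at -0.04 (SE 0.15), with an interval from 0.772-fold to 1.23-fold.

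P2ry12 had the largest difference of the 9. Its FPKM was 8.52, 16.7, 16.2 and 16.1 after saline and 19.9, 13.8, 23.6 and 20.0 after LPS. Of the LPS-Saline libraries 3 lay above all of the Saline-Saline libraries, and 1 lay below all but 1 of them. The log2 fold change was 0.45 (SE 0.24) and missed the threshold with a limma p of 0.0908 (adjusted p 0.757) and an exact permutation p of 0.114. Leaving out that low LPS-Saline library, replicate 2, gave 0.60 with a limma p of 0.0328, which would be called. Leaving out the low Saline-Saline replicate 1, the library with the choroid plexus signal, gave 0.22 with a limma p of 0.219. The other members ran from -0.16 (Cx3cr1) to 0.30 (Itgam), and the interval for Cd68, 0.519-fold to 1.72-fold, was too wide to tell a fall from a rise. In the same comparison 8 of 8 oligodendrocyte genes (median -0.23) and 5 of 5 choroid plexus genes (median -1.69) were lower. Higher were 5 of 5 cortical glutamatergic genes (median 0.60) and 5 of 5 red blood cell genes (median 0.29). Single libraries weighed on the red blood cell and choroid plexus values. Summed red blood cell genes reached 1160 FPKM in LPS-Saline replicate 4, while the group medians were 418 FPKM in LPS-Saline and 439 FPKM in Saline-Saline. Summed choroid plexus genes were 332 FPKM in Saline-Saline replicate 1 and 0.753 to 6.59 FPKM in the rest of that group. No gene of the lists named here was called, and the part of these genes in the values of the members was not tested.

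Past LPS followed by heroin gave no call either. In LPS-Heroin against Saline-Heroin 0 of 9 members were called, while 2.2% of 15121 genes were, and no gene passed adjustment by limma (637 had an unadjusted p of at most 0.05). Here 6 members were higher and 3 lower, with a median log2 fold change of 0.07, against 0.00 for all genes. Cx3cr1 came nearest. It stood at 8.74, 9.48, 7.43 and 14.1 FPKM in Saline-Heroin and at 13.4, 14.7, 10.8 and 12.9 FPKM in LPS-Heroin, so that 3 Saline-Heroin libraries lay below every LPS-Heroin library and the remaining one lay above all but 1. The log2 fold change was 0.41 (SE 0.19), with a limma p of 0.0563 (adjusted p 1.000) and an exact permutation p of 0.114.

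That result depended on the fit. Cx3cr1 was called in the fit of all 6 groups together (p 0.0266), with voom on recovered reads (0.43, p 0.0330), without the high Saline-Heroin replicate 4 (0.59, p 0.0019) and without LPS-Heroin replicate 3 (0.50, p 0.0377). Cd68 was the lowest member, at 1.01, 1.21, 1.28 and 0.986 FPKM in Saline-Heroin and 0.647, 0.771, 0.515 and 1.02 FPKM in LPS-Heroin. Its difference of -0.57 (SE 0.27) had a limma p of 0.0682 (adjusted p 1.000) and would be called without LPS-Heroin replicate 4 (-0.72, p 0.0343). Csf1r again differed little, by 0.07 (SE 0.08).

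The most direct test set the 8 libraries with past LPS against the 8 without, with heroin as a term. Again 0 of 9 members were called (1.77% of 15113 genes were), and none passed adjustment by limma, while 1034 genes had an unadjusted p of at most 0.05. The log2 fold changes ran from -0.32 for Cd68 to 0.19 for Tmem119, 8 of them above 0 and most close to it, with a median of 0.05 against 0.00 for all genes. For Csf1r, Aif1 and Tyrobp the 95% interval lay within 1.3-fold on both sides: 0.941 to 1.12 for Csf1r, 0.862 to 1.17 for Aif1 and 0.856 to 1.18 for Tyrobp. Tmem119 had the smallest p, 0.0892 (adjusted p 0.765), at 0.19 (SE 0.10). For P2ry12 the interval, 0.799 to 1.47, still admitted a rise of over 1.3-fold, and for Cd68, 0.567 to 1.12, it admitted a fall of that size. Cd68 would be called lower without LPS-Saline replicate 4, its highest library at 2.34 FPKM (-0.48, p 0.0305). In that library the summed border macrophage genes were also at their group's highest, 20.1 FPKM, as were the red blood cell genes, 1160 FPKM, and their part in the value was not tested. For past LPS in this fit, 5 of 5 cortical glutamatergic genes were higher (median 0.56, Tbr1 called). In turn 7 of 7 border macrophage genes were lower (median -0.17, none called). The part of these genes in the values of the members was not tested.

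**Figure D2:**
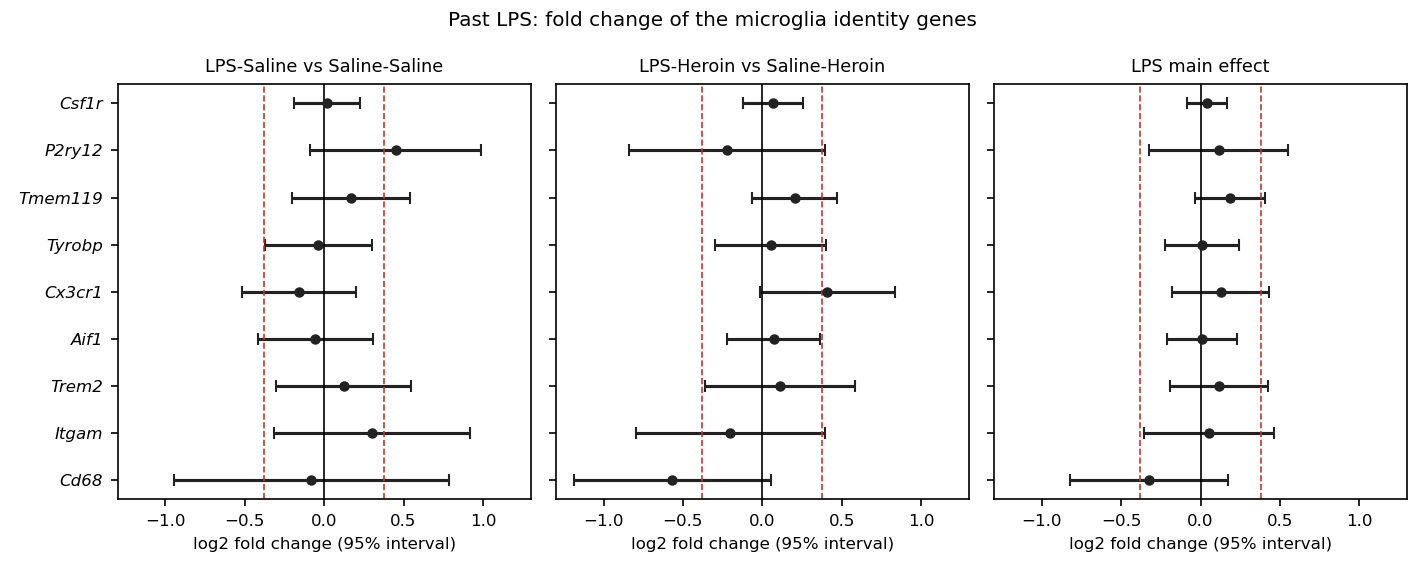
Log2 fold change (x axis) of each member after past LPS without heroin, after past LPS followed by heroin, and in both together with heroin as a term. Points are limma estimates, bars are 95% intervals and dashed lines mark a fold of 1.3 in either direction. All 27 intervals include 0, and those of Csf1r are the narrowest.

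An LPS by heroin interaction, a difference in the effect of past LPS between heroin and saline rats, was called for 1 member. The LPS by heroin interaction for Cx3cr1 was 0.57 on the log2 scale (SE 0.26, 95% interval 0.01 to 1.12, limma p 0.0464, adjusted p 0.992). The interaction was called in 2.31% of 15113 genes, so 1 of 9 members is not far from that background, and leaving out any of 11 of the 16 libraries took its p above 0.05 (0.0535 to 0.105). The exceptions were Saline-Saline replicates 3 and 4, LPS-Saline replicate 2, Saline-Heroin replicate 4 and LPS-Heroin replicate 3. In its levels, Cx3cr1 was 14.5 ± 3.05 FPKM in Saline-Saline and 12.9 ± 1.78 FPKM after LPS alone, 9.95 ± 2.92 FPKM in Saline-Heroin and 12.9 ± 1.63 FPKM in rats given both (SD, n = 4), with Saline-Heroin the low group. P2ry12 had the largest interaction in size, -0.67 (SE 0.39), with a limma p of 0.107 (-0.85, p 0.0436, without Saline-Heroin replicate 3 and -0.89, p 0.0296, without LPS-Heroin replicate 2), and those of the remaining members had p-values of 0.200 or more. Genes of other cells moved in the same term: 8 of 8 oligodendrocyte genes had an interaction above 0 (median 0.39, Opalin called), and 10 of 10 medium spiny neuron genes (median -0.20), 7 of 7 border macrophage genes (median -0.28) and 5 of 5 red blood cell genes (median -0.35) had one below 0. Their part in the interaction of Cx3cr1 was not tested.

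Spi1, the gene of PU.1, had the same order of group means. It stood at 2.80 ± 0.628 FPKM in Saline-Saline and 2.45 ± 0.312 FPKM after LPS alone, 1.68 ± 0.246 FPKM in Saline-Heroin and 2.57 ± 0.509 FPKM in rats given both (SD, n = 4). Its FPKM in the Saline-Heroin libraries was 1.81, 1.93, 1.64 and 1.36, below all Saline-Saline libraries, and all but 1 of them also lay below every LPS-Heroin library. Spi1 was called higher in LPS-Heroin than in Saline-Heroin, by 0.57 (SE 0.20, limma p 0.0189, adjusted p 1.000). The interaction for Spi1 was 0.73 (SE 0.27, limma p 0.0149, adjusted p 0.992). Spi1 was the only 1 of 9 microglial transcription factors tested whose interaction was called. Of these 9, 5 had an interaction above 0, with a median of 0.01 and a range from -0.48 to 0.73. Cx3cr1 and Spi1 share the Saline-Heroin libraries, and their patterns are not independent. Within that group they did not move together: replicate 4 had its highest Cx3cr1, 14.1 FPKM, and its lowest Spi1, 1.36 FPKM.

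Heroin was compared with its own control in 3 sets of libraries that share none. In Saline-Heroin against Saline-Saline, 1 of 9 members was called, with 3.07% of 15143 genes. The call was downward, as it was for 1.67% of genes. This was Cx3cr1, at 15.1, 18.5, 12.7 and 11.6 FPKM in Saline-Saline and 8.74, 9.48, 7.43 and 14.1 FPKM in Saline-Heroin, with 3 of the 4 Saline-Heroin libraries below all controls and the remaining one among them. On the log2 scale the difference was -0.55 (SE 0.21, limma p 0.0266, adjusted p 0.750, exact permutation p 0.0857). The call was lost on leaving out any of 5 of the 8 libraries, namely Saline-Saline replicate 1 or 2 or Saline-Heroin replicate 1, 2 or 3, with p between 0.0519 and 0.0755. The first of these is the library with the choroid plexus signal. In the same comparison 8 of 8 oligodendrocyte genes were lower (median -0.36, Opalin called), while 5 of 5 red blood cell genes (median 0.83, Hba1 and Hbb-b1 called), 10 of 10 medium spiny neuron genes (median 0.16) and 7 of 7 border macrophage genes (median 0.30) were higher. Their part in the lower Cx3cr1 was not tested.

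In LPS-Heroin against LPS-Saline, 2 of 9 members were called, with 2.29% of 15069 genes, and both were lower after heroin, as 1.15% of genes were. Itgam stood at 1.77, 2.17, 1.83 and 1.84 FPKM in LPS-Saline and at 1.43, 1.58, 0.831 and 1.39 FPKM in LPS-Heroin, and the groups did not overlap. The log2 fold change was -0.54 (SE 0.23, limma p 0.0432, adjusted p 0.977), and the exact permutation p was 0.0286, the smallest that 4 against 4 allows. Of the 9 members 1 did not overlap, and 2.58% of all genes tested did not. P2ry12 stood at 19.9, 13.8, 23.6 and 20.0 FPKM in LPS-Saline and 11.5, 19.6, 12.2 and 8.76 FPKM in LPS-Heroin, with 3 of the 4 heroin libraries below all LPS-Saline libraries. Its log2 fold change was -0.60 (SE 0.24, limma p 0.0340, adjusted p 0.977, exact permutation p 0.0571).

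Neither call was firm. Leaving out 1 library ended the call in 7 of 8 cases for Itgam, all but LPS-Heroin replicate 2, with p from 0.0512 to 0.105, and in 6 of 8 for P2ry12, all but LPS-Saline replicate 2 and LPS-Heroin replicate 2, with p from 0.0643 to 0.0926. Itgam also missed the p or the fold with a pseudocount of 1, with no filter and with a minimum mean FPKM of 1. Cd68 differed by -0.69 (SE 0.39, limma p 0.109) and would be called in the fit of all 6 groups (p 0.0428) and without LPS-Saline replicate 1 (-0.95, p 0.0297). Itgb2, which encodes the chain that pairs with Itgam, stood at 2.60 ± 0.210 FPKM in LPS-Saline and 2.45 ± 0.235 in LPS-Heroin (SD, n = 4). Here 5 of 5 cortical glutamatergic genes (median 0.56) and 5 of 5 red blood cell genes (median 0.50) were higher with none called, and their part in these differences was not tested.

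In Heroin-SA against Saline-SA, 0 of 9 members were called, whereas 5.44% of 15024 genes were, and none passed adjustment by limma (1725 had an unadjusted p of at most 0.05). Tmem119 had the smallest p among the members. Its FPKM was 9.52, 13.4, 14.4 and 14.3 in Saline-SA and 15.5, 14.0, 17.0 and 15.8 in Heroin-SA, with 3 of the 4 heroin libraries above all controls. Tmem119 differed by 0.28 on the log2 scale (SE 0.14, limma p 0.0699, adjusted p 0.473, exact permutation p 0.0857). P2ry12 differed by -0.42 (SE 0.26) with a limma p of 0.140, and Csf1r by -0.05 (SE 0.10).

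**Figure D3:**
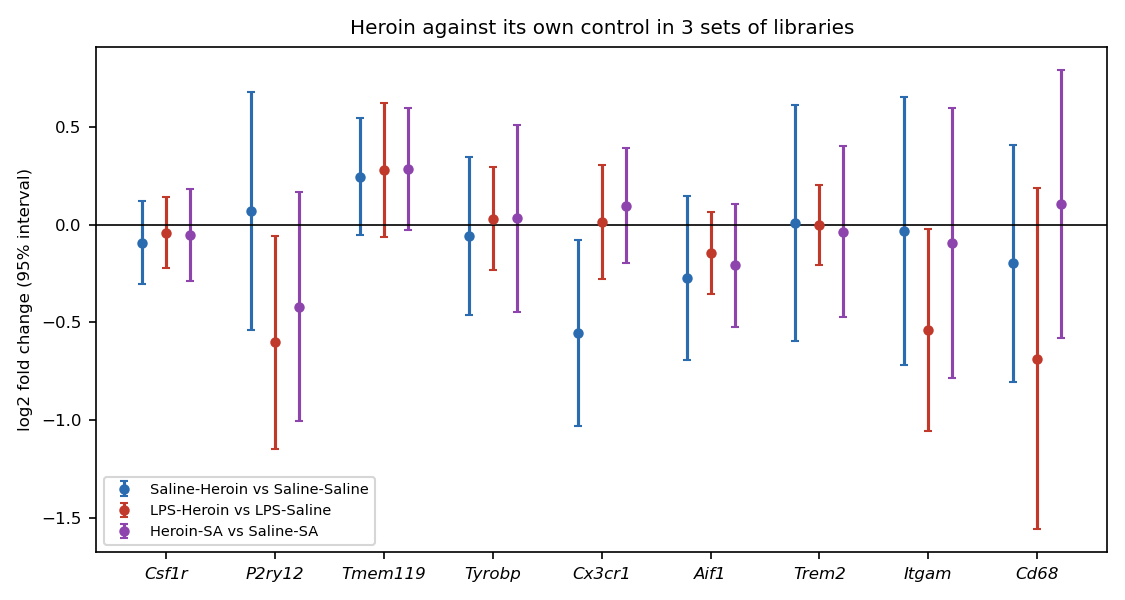
Log2 fold change (y axis) of each member for heroin against its own control in 3 sets of libraries that share none. Points are limma estimates and bars are 95% intervals. Tmem119 lies at 0.25, 0.28 and 0.28 with every interval including 0, and 3 intervals exclude 0: Cx3cr1 in Saline-Heroin, and P2ry12 and Itgam in LPS-Heroin.

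Both treatments against none gave 2 calls. In LPS-Heroin against Saline-Saline, Tmem119 was called higher and Cd68 lower, 2 of 9 members with 5.42% of 15134 genes (2.99% higher and 2.44% lower). Tmem119 stood at 14.5, 11.9, 11.2 and 10.6 FPKM in Saline-Saline and at 15.7, 14.9, 16.7 and 18.5 FPKM in LPS-Heroin, and the groups did not overlap. On the log2 scale this was 0.45 (SE 0.11, 1.37-fold), with a limma p of 0.0028, an adjusted p of 0.209 and an exact permutation p of 0.0286, the smallest possible. Groups did not overlap for 1 of 9 members and for 6.86% of all genes tested. The call for Tmem119 held without any 1 library, at 0.39 to 0.54. Cd68 stood at 1.30, 0.798, 1.73 and 1.54 FPKM in Saline-Saline and 0.647, 0.771, 0.515 and 1.02 FPKM in LPS-Heroin, with 3 of the 4 LPS-Heroin libraries below all controls.

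The difference for Cd68 was -0.77 on the log2 scale (SE 0.31, limma p 0.0369, adjusted p 0.406), on 9 to 20 reads per LPS-Heroin library. It was lost on leaving out 6 of the 8 libraries, all but Saline-Saline replicate 2 and LPS-Heroin replicate 4 (p from 0.0561 to 0.108), and with a minimum mean FPKM of 1. Markers of other tissue moved with this comparison. The summed level of 5 cortical glutamatergic genes was 86.8 to 267 FPKM in Saline-Saline and 342 to 436 FPKM in LPS-Heroin, without overlap, and that of the red blood cell genes was 408 to 598 and 579 to 851 FPKM. Their part in the differences of Tmem119 and Cd68 was not tested. Summed border macrophage genes were 9.18 to 13.8 FPKM in Saline-Saline and 8.94 to 15.9 FPKM in LPS-Heroin. In whole tissue, a change in the number of microglia and a change in RNA per microglial cell cannot be told apart for any of these differences.

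Other microglial and myeloid genes, and partners of the members, were taken from lists set beside the members. Some listed genes are also expressed by other cells, such as Cx3cl1 and Mef2c by neurons, so these lists do not measure microglia alone. For past LPS without heroin, the 2 lists closest to the members gave no call: 0 of 16 homeostatic microglia genes tested (7 higher, median log2 fold change -0.02) and 0 of 9 microglial transcription factors (6 higher, median 0.13). Among 12 partners and ligands none was called (6 higher, median -0.03), and among 15 genes of reactive and disease-associated microglia none was called (4 higher, median -0.13). The pan-leukocyte and myeloid list gave 1 call of 17, Ly86, a partner of a toll-like receptor relative. Its FPKM was 1.54, 1.75, 1.14 and 1.37 in Saline-Saline and 2.05, 1.71, 2.84 and 2.40 in LPS-Saline, on 18 to 40 reads per library. The log2 fold change of Ly86 was 0.59 (SE 0.21, limma p 0.0217, adjusted p 0.729), with all but 1 LPS-Saline library above every control. The median over all genes was 0.01.

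For past LPS followed by heroin, 1 of 9 transcription factors was called, which was Spi1, and 1 of 15 reactive genes, Cd74, the invariant chain of antigen presentation. Cd74 stood at 5.36, 12.8, 18.8 and 6.04 FPKM in Saline-Heroin and 5.53, 2.87, 2.40 and 7.35 FPKM in LPS-Heroin, and the groups overlapped. Its log2 fold change was -1.18 (SE 0.47, limma p 0.0339, adjusted p 1.000). None of 16 homeostatic genes, 12 partners and ligands or 17 pan-leukocyte genes was called. The border macrophage list had no call and all 7 tested genes lower, with a median of -0.33. Outside the immune lists, 1 of 8 oligodendrocyte genes (Opalin, a myelin protein, 0.45, SE 0.19, p 0.0455) was called higher by limma, with an adjusted p of 1.000. Of the oligodendrocyte genes 8 of 8 were higher (median 0.15), as were 5 of 5 cortical glutamatergic genes (median 0.53, 1 called). In contrast, 10 of 10 medium spiny neuron genes were lower (median -0.06, none called). The part of these genes in the values of the members was not tested.

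With all 16 libraries, no gene of the homeostatic, transcription factor, partner, pan-leukocyte, reactive, border macrophage or blood monocyte lists was called for past LPS. The ligands and partners of the members stayed close to 0 on the log2 scale: Csf1 -0.14 (SE 0.11), Il34 0.06 (SE 0.08), Cx3cl1 0.08 (SE 0.07), Itgb2 -0.06 (SE 0.10) and Syk, a kinase downstream of Tyrobp, 0.04 (SE 0.15). Among transcription factors, Spi1 stood at 0.20 (SE 0.16), Irf8 at -0.04 (SE 0.17) and Sall1, which maintains microglial identity, at -0.05 (SE 0.08). Tbr1, of cortical glutamatergic neurons, was the only listed gene called, at 0.56 (SE 0.26, limma p 0.0460, adjusted p 0.730).

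The members did not vary as 1 block. Over the 16 libraries of the injection experiment, 27 of 36 pairs correlated positively, with a median Pearson r of 0.18, and 3 pairs passed Benjamini-Hochberg adjustment over the 36. Csf1r correlated with Cx3cr1 (r 0.79, adjusted permutation p 0.0076, Spearman rho 0.80, adjusted p 0.0115), and r was 0.75 without the 2 libraries farthest from the median of Cx3cr1. Csf1r and Itgam gave r of 0.70 (adjusted permutation p 0.0299, rho 0.64, adjusted p 0.0701), and 0.60 without the 2 farthest of Csf1r. Aif1 and Tyrobp gave r of 0.75 (adjusted permutation p 0.0090, rho 0.66, adjusted p 0.0701), and 0.52 without the 2 farthest of Aif1. These values pool 4 groups, so differences between groups enter them.

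P2ry12, Cd68 and Tmem119 stood outside this pattern. Tmem119 reached at most r of 0.41 (with Trem2) in the injection experiment and was in no pair that passed adjustment. P2ry12 reached at most r of 0.17 with any other member in the injection experiment, and its lowest was -0.41 with Tmem119. Cd68 went down where Tmem119 went up (r -0.65, adjusted permutation p 0.0504, rho -0.64, adjusted p 0.0701), and r was -0.40 without the 2 farthest of Tmem119. Over the 8 libraries of the SA experiment, 18 of 36 pairs were positive, and none passed adjustment by Pearson r under exact permutation. Csf1r and Cx3cr1 gave r of -0.23 there, with an adjusted exact permutation p of 0.945. Csf1r and Cd68 had the highest r, 0.82 (adjusted exact permutation p 0.403, rho 0.95, adjusted p 0.0411).

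**Figure D4:**
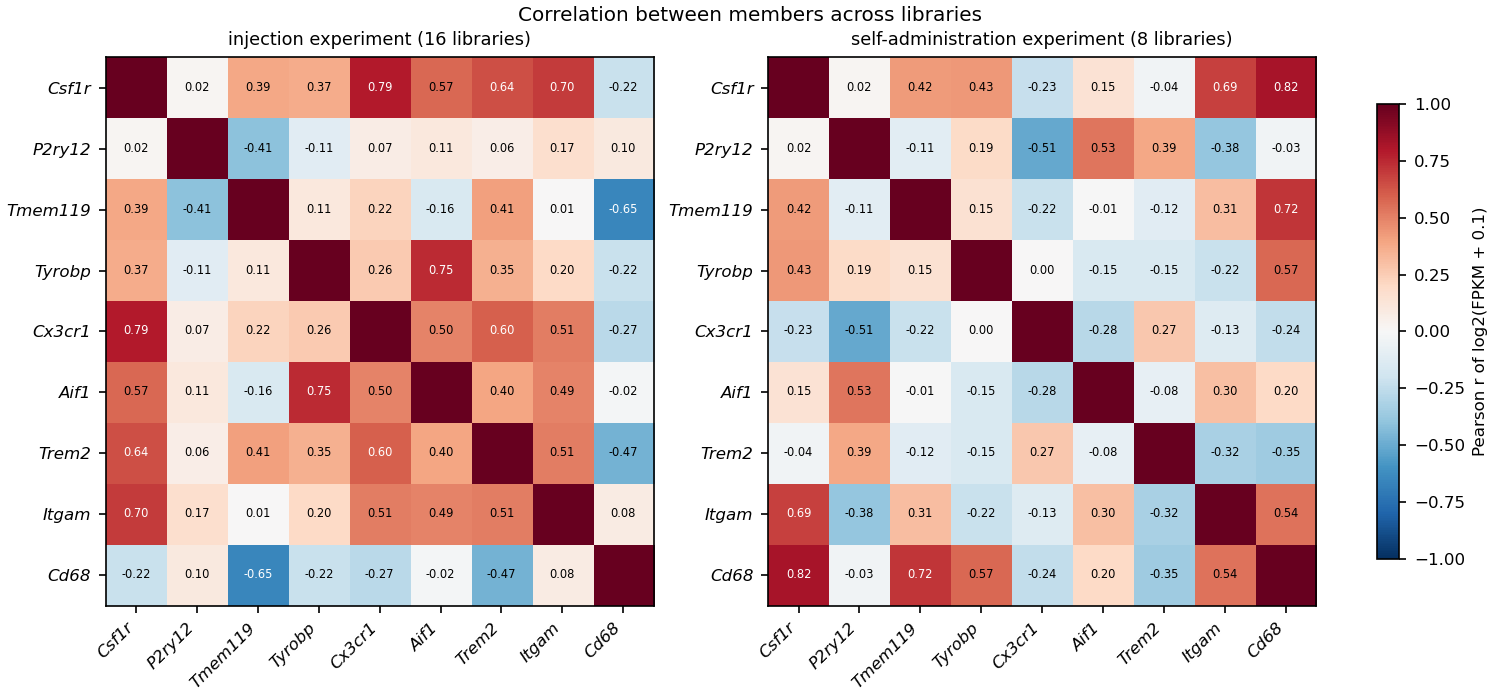
Pearson r of log2(FPKM + 0.1) between each pair of members over the 16 libraries of the injection experiment and, separately, over the 8 libraries of the SA experiment. Colour and printed number both give r, from -1 (blue) to 1 (red). Csf1r, Cx3cr1, Itgam and Trem2 correlate with each other at r of 0.51 to 0.79 in the injection experiment and at r of -0.32 to 0.69 in the SA experiment.

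The members differed between the 2 experiments, which were housed, treated and killed differently and were not tested against each other. Itgam stood at 0.831 to 2.50 FPKM in the injection experiment and at 0.474 to 0.893 FPKM in the SA experiment, with 6 of 8 SA libraries below every injection library and a ratio of means of 0.441. Csf1r ran from 20.1 to 26.7 and from 15.4 to 20.6 FPKM, with 7 of 8 SA libraries below. Cx3cr1 had a ratio of 0.633, with 3 of 8 below. Tmem119 (ratio 1.01), Tyrobp (1.00), Trem2 (0.972) and Cd68 (1.16) were similar in both. Dividing each library by its median left the ratio of Itgam at 0.461. The median log2 ratio of SA to injection was -0.05 for genes over 7000 bases (Itgam is 7433 bases long) and 0.05 for genes under 1000. Other cells also separated the experiments. Summed oligodendrocyte precursor genes were 53.6 to 78.8 FPKM in the injection and 41.6 to 53.3 FPKM in the SA libraries, without overlap, while medium spiny neuron genes were 1209 to 2464 and 1902 to 3251 FPKM and endothelial genes 107 to 146 and 133 to 165 FPKM. The part of gene length, scaling and other cells in the levels of Itgam, Csf1r and Cx3cr1 was not tested.

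The 10 likeness genes followed the members most closely, by Pearson r over the 24 libraries between a gene and the mean standardised level of the 9 members, among 12353 genes with a mean of at least 1 FPKM. Those reported are C3, Lgmn, Mcoln1, Esrrg, Paip1, Coq10b, Prkcq, Slc41a3 and Sv2a, with r from 0.718 to 0.764. The libraries share experiment and depth, and some of this likeness follows the difference between the experiments. Complement C3 had a mean of 3.10 FPKM in the injection and 1.11 FPKM in the SA experiment, and within the SA libraries its r was 0.01. Lgmn, a lysosomal protease, kept an r of 0.86 within the SA libraries. The other listed microglial genes were spread widely: of 39 with enough FPKM, 30 had an r above 0, and the median was 0.17. Golm1 ranked highest of these (rank 14, r 0.71), whereas P2ry13 had rank 2386 (r 0.35), and Spi1 (-0.12), Irf8 (-0.12), Sall1 (-0.10) and Adgrg1 (-0.38) lay below 0.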

How the data were processed

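RNA was extracted from NAc tissue of single rats and 300 ng went into each directional library of polyadenylated RNA. The submitters' processing notes name fastp, HISAT2, featureCounts and the build rn6, without versions. The authors deposited FPKM values of 24 libraries. Times gene length, 100% of values up to 1000 reads were whole reads to within 0.01, so reads per gene were recovered. The labels place 1 week between LPS and the second phase, and the study's methods give 4 days, and 6 sequenced samples a group where 4 were held here.

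Groups came from the labels. Log2(FPKM + 0.1) was fitted with limma 3.58.1 (limma-trend, R 4.3.3) for genes averaging at least 0.5 FPKM, on only those groups that a comparison names, with p-values adjusted over all genes tested. Intervals are 95% intervals. Single members were also compared by a 2-sided exact permutation of 8 libraries. Correlations used 100000 permutations (16 libraries) or all of them (8 libraries). The members and lists were chosen with earlier results of these data known. Named were all members, list genes called for past LPS (at most 4 per list and comparison), 8 regulators and partners whatever their p, and the 10 likeness genes, apart from a few genes that are not reported here. Promoters were taken from RefSeq (GRCr8). The fits were tested on simulated data. Alternatives tried were a joint fit of all 6 groups, voom on recovered reads, robust moderation, a replicate block, another pseudocount (1 or 0.01), no filter or a higher one (1 FPKM), scaling by quantiles or by medians, and leaving out each library. Libraries of one group differed by 6.95 to 30.2 chi-square units per gene, so none was a duplicate of another in its group. Libraries of different groups were not compared in this way.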

Additional observations from a re-analysis of the deposited data

Results flagged for a closer look

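With 4 libraries in a group, a single value can stand far from the other 3. Of 54 sets of 4 (9 members in 6 groups), 5 held such a value by Dixon's test, while chance flags about 1 in 20. P2ry12 was lowest in Saline-Saline replicate 1, at 8.52 FPKM, which is also the library with choroid plexus RNA. Tmem119 was lowest in LPS-Saline replicate 4, at 9.62 FPKM. Aif1 was highest in Saline-Saline replicate 2, at 14.2 FPKM, and that library also held the highest Cx3cr1 and Itgam of all. Itgam was highest in LPS-Saline replicate 2, at 2.17 FPKM, in a group whose other 3 libraries lay between 1.77 and 1.84. Trem2 was lowest in Saline-SA replicate 4, at 5.80 FPKM.

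The estimated effect of past LPS on Cx3cr1 differed between rats with and without heroin by 0.57 on the log2 scale (interaction term, SE 0.26, limma p 0.0464, adjusted p 0.992). This does not pass adjustment over all genes.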

How the results depend on the processing

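No member passed adjustment under the settings as reported, and the counts of called genes were small, so counts moved with most choices. With no filter on FPKM the genes called became 581 (LPS-Saline against Saline-Saline), 524 (LPS-Heroin against Saline-Heroin), 548 (LPS-Heroin against LPS-Saline), 531 (LPS main effect), 565 (interaction) and 638 (heroin over 3 strata), and genes passing adjustment became 7, 1 and 5 (LPS-Saline against Saline-Saline, LPS-Heroin against Saline-Heroin, Saline-Heroin against Saline-Saline) and 2 (interaction), more genes being tested. A pseudocount of 1 gave 175 called genes for the LPS main effect and 203 for heroin over 3 strata, and 1 gene passing adjustment for Heroin-SA against Saline-SA. All 6 groups in one fit gave 78 there. For heroin over 3 strata, 4 genes passed adjustment with quantile normalization, 4 with equal medians and 12 with voom. The cause of these last shifts was not tested.

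Members called became 1 in LPS-Heroin against Saline-Heroin (Cx3cr1) in the fit of all 6 groups and with voom. In LPS-Heroin against LPS-Saline the number became 1 with a pseudocount of 1, no filter or a minimum mean of 1, and in LPS-Heroin against Saline-Saline it became 1 with the last of these. Other than on leaving out a library, signs turned for values within 0.05 of 0: Csf1r in LPS-Saline against Saline-Saline (-0.0041 with equal medians, -0.0092 with voom), Aif1 in the LPS main effect (-0.011 with voom) and Tyrobp there (-0.0015 with quantile normalization, -0.00020 with equal medians, -0.0096 with voom). The same befell Trem2 in Saline-Heroin against Saline-Saline (-0.042 with voom), in LPS-Heroin against LPS-Saline (0.016 with quantile normalization and with equal medians) and in the interaction (0.0081 to 0.016 with these 3 settings), and Tyrobp in LPS-Heroin against LPS-Saline (-0.0014 with voom) and in heroin over 3 strata (-0.0025 with quantile normalization, -0.012 with voom).

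Leaving out each library in turn moved called genes between 310 and 624 (LPS-Saline against Saline-Saline), 366 and 726 (Saline-Heroin against Saline-Saline) and 226 and 422 (LPS main effect). Members called ran from 0 to 1 in both LPS comparisons, the LPS main effect, Saline-Heroin against Saline-Saline, the interaction and heroin over 3 strata, from 0 to 2 in LPS-Heroin against LPS-Saline and from 1 to 2 in LPS-Heroin against Saline-Saline, where the members' median ran from -0.17 to -0.0077. Genes passing adjustment ran from 0 to 1 (LPS-Saline against Saline-Saline, LPS-Heroin against LPS-Saline, Heroin-SA against Saline-SA, interaction), 0 to 2 (LPS-Heroin against Saline-Heroin and against Saline-Saline), 0 to 3 (Saline-Heroin against Saline-Saline) and 0 to 16 (heroin over 3 strata). Signs turned in LPS-Saline against Saline-Saline for Csf1r (-0.036 to 0.079), Aif1 (-0.14 to 0.12), Trem2 (-0.040 to 0.27), Tyrobp (-0.17 to 0.087) and Cd68 (-0.38 to 0.19). They turned in LPS-Heroin against Saline-Heroin for Aif1 (-0.038 to 0.15), Trem2 (-0.046 to 0.33) and Tyrobp (-0.056 to 0.16), and in the LPS main effect for P2ry12 (-0.019 to 0.22), Aif1 (-0.047 to 0.093), Itgam (-0.060 to 0.16) and Tyrobp (-0.050 to 0.068). Without the choroid plexus library, Saline-Saline replicate 1, members called were 0 in LPS-Saline against Saline-Saline and in the LPS main effect, 0 in Saline-Heroin against Saline-Saline, 1 in LPS-Heroin against Saline-Saline and 0 for the interaction.

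Groups share replicate numbers, and libraries of the same number deviated together only weakly. In none of the 6 pairwise comparisons was every same-number correlation over 0.1 (range -0.15 to 0.15). A pairing in some groups is not excluded by this. A fit with the replicate block gave 1 member called in LPS-Heroin against Saline-Heroin (Cx3cr1, p 0.0344), 0 in LPS-Heroin against LPS-Saline and 1 in LPS-Heroin against Saline-Saline (Tmem119), changed no other member's call, and left 1 gene passing adjustment for heroin over 3 strata. In LPS-Saline against Saline-Saline the block raised the genes called from 357 to 480, with 0 members called and 0 genes passing adjustment. Every library correlated best with its own number in 0 of the 6 comparisons, but 3 of 4 did in LPS-Saline against Saline-Saline. For LPS-Heroin, 2 of 4 did against LPS-Saline and 2 of 4 against Saline-Saline, and 0 of 4 did in the remaining comparisons. Depth limits Cd68 most, with 9 to 40 reads a library, and with 4 rats a group the 95% interval lay within 1.3-fold for 5 of 9 members in LPS-Heroin against LPS-Saline and for 1 to 3 in the other comparisons.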

Other observations

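Tmem119 was higher with heroin in all 3 sets of libraries, by 0.25, 0.28 and 0.28 on the log2 scale, though it was called in none. A fit over all 24 libraries with each set as a stratum, added after these values were seen, gave 0.27 (SE 0.08, 1.21-fold, limma p 0.0037, adjusted p 0.219), below the fold needed for a call. In the same fit Aif1 was lower, by -0.21 (SE 0.08, limma p 0.0194, adjusted p 0.328), P2ry12 stood at -0.32 (SE 0.17, p 0.0717; -0.41, p 0.0146, without Saline-Saline replicate 1 and -0.39, p 0.0260, without Saline-Heroin replicate 1) and Csf1r at -0.06 (SE 0.05). Of the 9 members 0 were called in it, with 2.41% of all genes, 2 were higher and 7 lower. Other tissue moved in this fit as well: 5 of 5 cortical glutamatergic genes were higher (median 0.60, Tbr1 and Emx1 called), 5 of 5 red blood cell genes were higher (median 0.33) and 8 of 8 oligodendrocyte genes were lower (median -0.14), and their part in the values of the members was not tested.

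Genes of the microglial, myeloid and partner lists that were called for heroin were picked out after their values were seen. In LPS-Heroin against LPS-Saline, P2ry13, a purinergic receptor related to P2ry12, was lower by -0.62 (SE 0.19, limma p 0.0090, adjusted p 0.977), and Spp1 (osteopontin) was lower by -1.58 (SE 0.43, limma p 0.0049, adjusted p 0.977). Ly86 was lower there too, by -0.50 (SE 0.21, limma p 0.0417, adjusted p 0.977), and it had been called higher in LPS-Saline than in Saline-Saline. Both comparisons use the same LPS-Saline libraries. In Saline-Heroin against Saline-Saline, Spi1 was lower by -0.69 (SE 0.20, limma p 0.0076, adjusted p 0.750) and Cd33, an inhibitory sialic acid receptor, by -0.50 (SE 0.16, limma p 0.0111, adjusted p 0.750). Mef2c was higher there, by 0.72 (SE 0.20, limma p 0.0062, adjusted p 0.750). Neurons express Mef2c as well, and it stood at 27.4 ± 6.93 FPKM in Saline-Saline and 45.2 ± 10.2 in Saline-Heroin (SD, n = 4), far above Spi1. Lpl, a lipase listed with reactive microglia, was also higher, by 0.44 (SE 0.14, limma p 0.0128, adjusted p 0.750). In Heroin-SA against Saline-SA the only call in the lists of microglial genes and their partners was Tgfb1, at -0.40 (SE 0.15, limma p 0.0259, adjusted p 0.387).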
